A study of Saccharomyces cerevisiae with 10 samples.

Results

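The genes described here encode the protein subunits of the yeast mitochondrial ribosome. They were taken by name, as the rows whose standard Saccharomyces cerevisiae symbol is MRPL, MRPS, MRP or RSM followed by a number. This gave 66 of the 5983 rows of the deposited value table. Of these, 38 belong to the large subunit, 27 to the small subunit, and 1, MRP8, to neither. A further gene that fits the name rule, MRP2, was not analysed here. The 66 genes lie on 14 chromosomes, and 64 of them carry a systematic ribosomal protein name in RefSeq (assembly R64) that gives the same subunit as the symbol or, for MRP35 alone, gave the subunit.

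The series followed transcript levels in budding yeast through a heat shock. The groups used were strain delKIN82, with the KIN82 gene deleted, at 0, 5, 15, 30 and 60 min of heat shock, and strain DBY8778 at the same 5 times, read here as the wild type since it is the only other strain named. KIN82 encodes a protein kinase linked to the flippases that move lipids across the plasma membrane. Each strain and time was measured on 1 array with 2 channels, the sample and a reference RNA common to all 10 arrays by name, so that no group has a second sample. The 0 and 60 min titles of delKIN82 hold the word repeat and all DBY8778 titles name a second heat shock. Whether 1 culture gave all times of a strain, and whether the strains were heated together, is not said in the labels. Temperature, medium and further alleles of either strain are likewise not given. The deletion was not checked on the arrays, since KIN82 was not analysed here.

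Mitochondria keep a small genome, and in yeast it encodes a few membrane subunits of the respiratory chain and of the ATP synthase. These are made inside the organelle by a ribosome of its own, with a large subunit that forms peptide bonds and a small subunit that decodes the mRNA. Nearly all of its proteins are encoded in the nucleus, made by cytosolic ribosomes and imported. Some have relatives in all ribosomes (the systematic names that begin with u), some in bacteria only (b), and some belong to mitochondria (m).

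Values are log2 ratios of sample over reference, each array centred on its median gene. A change from 0 min is therefore a change relative to the median transcript of the cells, not a change in molecules per cell. In cultures, a change in a few cells and a smaller change in all cells cannot be told apart. Neither the base nor the direction of the ratio was stated. The likely direction, with the sample on top, was taken from Hsf1-dependent chaperones, of which 28 of 28 in delKIN82 and 27 of 27 in DBY8778 were above 0 min at 15 min. That list sets the direction and is no evidence for it. The arrays held between 5844 and 5949 values, with at most 2.32% missing. No pair of arrays was negatively correlated, with r across genes between 0.365 and 0.93. Of the 66 genes, 61 had a value on all 10 arrays and 5 on 9 arrays.

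The ratios of the mitochondrial ribosomal genes stayed close to that of the median gene throughout the heat shock, with a small shift upwards from 15 min on. A ratio over the reference does not give the level of a transcript relative to other transcripts. Leaving out MRP8, the median log2 ratio of the measured genes in delKIN82 was -0.22 at 0 min, -0.16 at 5 min, 0.24 at 15 min, 0.25 at 30 min and 0.21 at 60 min. In DBY8778 the median was 0.11 at 0 min, 0.12 at 5 min, 0.31 at 15 min, 0.37 at 30 min and 0.32 at 60 min. Both strains thus showed their highest medians at 30 min, and the delKIN82 median lay below the DBY8778 median at each of the 5 times.

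The spread of the genes in delKIN82 was narrowest at 60 min, as was that of all genes. The interquartile range of the members' log2 ratios there was 0.82 at 0 min, 0.73 at 5 min, 0.91 at 15 min, 0.54 at 30 min and 0.42 at 60 min. In DBY8778 it was 0.66, 0.86, 0.61, 0.53 and 0.58 at the same times. Over all genes of the arrays it was 0.84, 1.07, 1.18, 1.02 and 0.70 in delKIN82, against 0.73, 1.07, 1.16, 0.99 and 0.74 in DBY8778. At 15 min the mitochondrial ribosomal genes therefore spanned a narrower range of ratios than the transcriptome as a whole in each strain.

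**Figure D1:**
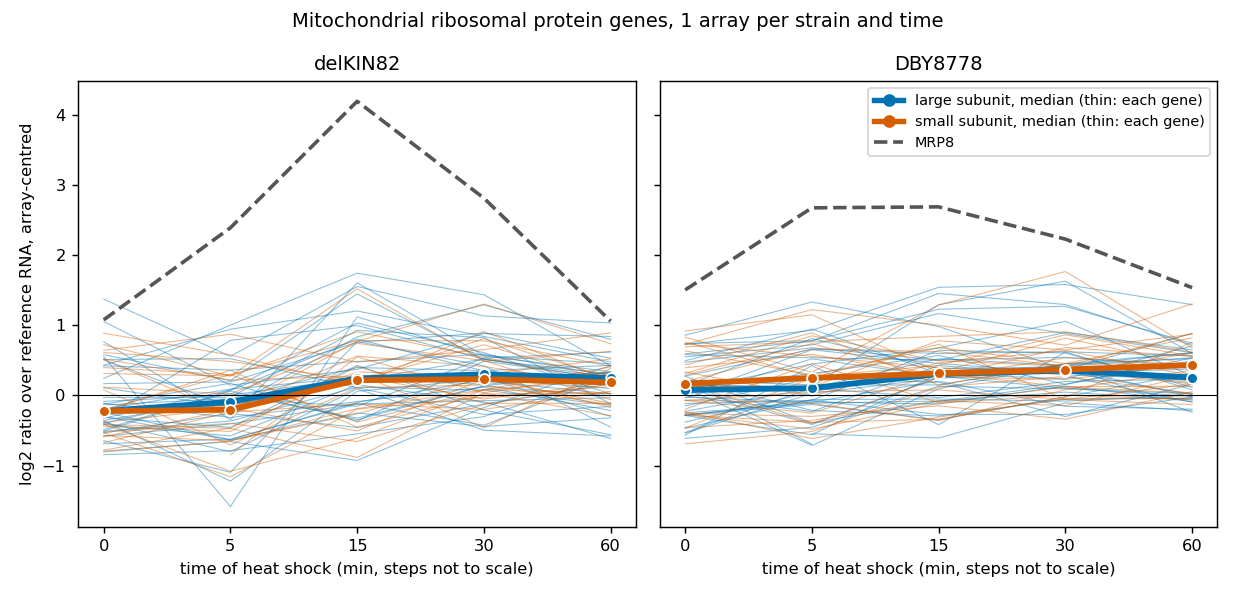
Log2 ratio over the reference RNA (vertical axis, array-centred) against time of heat shock in min, with delKIN82 left and DBY8778 right. Thin lines are single genes, blue for the large and orange for the small subunit, thick lines are their medians and the dashed line is MRP8. Apart from MRP8, which reached 4.19 in delKIN82 and 2.69 in DBY8778 at 15 min, the genes lay between -1.58 and 1.77.

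Changes with heat were fitted with limma over all 10 arrays, with time and strain as terms, and called at a Benjamini-Hochberg adjusted p under 0.05 over 5734 genes. In this fit 63 of the 66 genes were tested, 37 of the large subunit, 25 of the small subunit and MRP8. With 1 array per strain and time, the error of this fit holds any departure of the strains from parallel time courses. The p-values measure that spread only.

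At 15 min 6 of the 63 genes rose and 0 fell in limma. The share that rose, 9.52%, is that of all genes tested, of which 9.5% rose, so the number of rises is no feature of this gene group. Leaving out MRP8, 5 of 62 rose (8.06%). Among all genes 14.1% fell at this time, and 1 of the 63 was lower at an unadjusted p under 0.05. The fitted change was positive for 50 of the 63 (79.4%), against 53.2% of all genes tested. Its median was 0.29, with quartiles at 0.08 and 0.58, against a median of 0.05 and quartiles at -0.45 and 0.48 over all genes.

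Large-subunit genes made up 4 of the 6 rises. MRPL28 (YDR462W, systematic name mL40), a protein of the mitochondrial type, had log2 ratios of 0.24, 1.003, 1.74, 1.44 and 0.42 at 0, 5, 15, 30 and 60 min in delKIN82, against 0.73, 0.93, 1.54, 1.58 and 1.29 in DBY8778. It was high at 15 and 30 min in both strains, and at 60 min it was near its 0 min level in delKIN82 and still above it in DBY8778. The fitted change at 15 min was 1.16 ± 0.31 (SE), or 2.23-fold, with a limma adjusted p of 0.0134. It was 0.64 under quantile normalization and 0.70 with arrays set to an equal spread, without a call in either (limma adjusted p = 0.27 and 0.157). MRPL28 also rose at 30 min, by 1.02 ± 0.31 (limma adjusted p = 0.0434).

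MRPL24 (YMR193W, bL28m), a relative of a bacterial large-subunit protein, had ratios of -0.32, 0.08, 1.03, 0.61 and 0.02 in delKIN82, against -0.54, 0.03, 0.25, 0.34 and 0.01 in DBY8778 over the 5 times. All heated arrays lay above the 0 min array of the same strain, with a higher peak in delKIN82. Its change at 15 min was 1.07 ± 0.29, or 2.10-fold (limma adjusted p = 0.0143).

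MRPL36 (YBR122C, bL31m), known in yeast genetics as a gene whose extra copies relieve a translation defect of the mitochondrial COX2 mRNA, had ratios of -0.48, 0.07, 0.81, 0.35 and 0.15 in delKIN82. In DBY8778 they were -0.38, 0.05, 0.35, 0.42 and 0.54. Every heated array again lay above 0 min, and DBY8778 was highest at 60 min, not at 15 min. The change at 15 min was 1.01 ± 0.29, or 2.01-fold (limma adjusted p = 0.0193).

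MRPL17 (YNL252C, mL46) behaved differently at 5 min. It had ratios of -0.64, -1.09, 0.77, 0.42 and -0.45 in delKIN82, against -0.29, -0.56, 0.31, 0.39 and -0.02 in DBY8778. In both strains the 5 min array was the lowest and the 15 or 30 min array the highest. Its change at 15 min was 1.002 ± 0.31 (limma adjusted p = 0.0271), and its change at 5 min was -0.36 ± 0.31, which did not pass the test.

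MRPL1 (YDR116C, uL1m), of the protein family that forms the mobile stalk beside the exit site for tRNA, was next in size. It changed by 0.96 ± 0.34 and missed the threshold (limma adjusted p = 0.0575). Its ratios were 0.43, 0.94, 1.21, 0.84 and 0.48 in delKIN82, against 0.15, 0.13, 1.29, 1.63 and 0.60 in DBY8778. Both strains were well above their 0 min array at 15 and 30 min.

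Of the 25 small-subunit genes tested, MRP51 rose at 15 min. MRP51 (YPL118W, bS1m) is known to act with the leaders of mitochondrial mRNAs such as COX2 and COX3 in yeast. Its ratios were -0.59, -0.20, 0.56, 0.41 and 0.14 in delKIN82, against -0.46, 0.25, 0.73, -0.06 and -0.13 in DBY8778. The change was alike in the strains, 1.15 in delKIN82 and 1.19 in DBY8778, each from 1 pair of arrays. The fitted change was 1.17 ± 0.30, or 2.25-fold (limma adjusted p = 0.00969).

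The next largest small-subunit changes did not pass the test. RSM10 (YDR041W, uS10m), a protein of the head of the small subunit, had the lowest change of all members, -0.66 ± 0.28 (limma adjusted p = 0.11). With quantile normalization it was -0.96 and with equal spread -0.89, and both passed (limma adjusted p = 0.0436 and 0.0353). It had ratios of 0.89, 0.58, 0.15, 0.91 and 0.21 in delKIN82, against 0.92, 1.15, 0.33, 0.82 and 0.43 in DBY8778. The 15 min array was the lowest of each strain, and 30 min was back near 0 min. MRPS18 (uS11m) changed by 0.64 ± 0.30, MRPS16 (bS16m) by 0.62 ± 0.29 and RSM22, a methyltransferase-like protein found with the small subunit, by 0.56 ± 0.28.

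MRP8 (YKL142W) matches the name rule but is no longer counted among the ribosomal proteins, and its function is not known. It stood apart from every other member on the arrays. Its ratios were 1.08, 2.39, 4.19, 2.81 and 1.06 in delKIN82, against 1.505, 2.67, 2.69, 2.23 and 1.54 in DBY8778. It was high on all heated arrays up to 30 min in both strains and was back at its 0 min level at 60 min. The fitted change at 15 min was 2.15 ± 0.41, or 4.43-fold (limma adjusted p = 0.00117), and the change at 60 min against 15 min was -2.14 ± 0.41 (limma adjusted p = 0.00178). By single arrays the 15 min change was 3.11 in delKIN82 and 1.18 in DBY8778. Under quantile normalization its 15 min change was 0.95 and lost its call (limma adjusted p = 0.224, the highest of its 16 alternatives, which began at 6.5e-05).

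**Figure D2:**
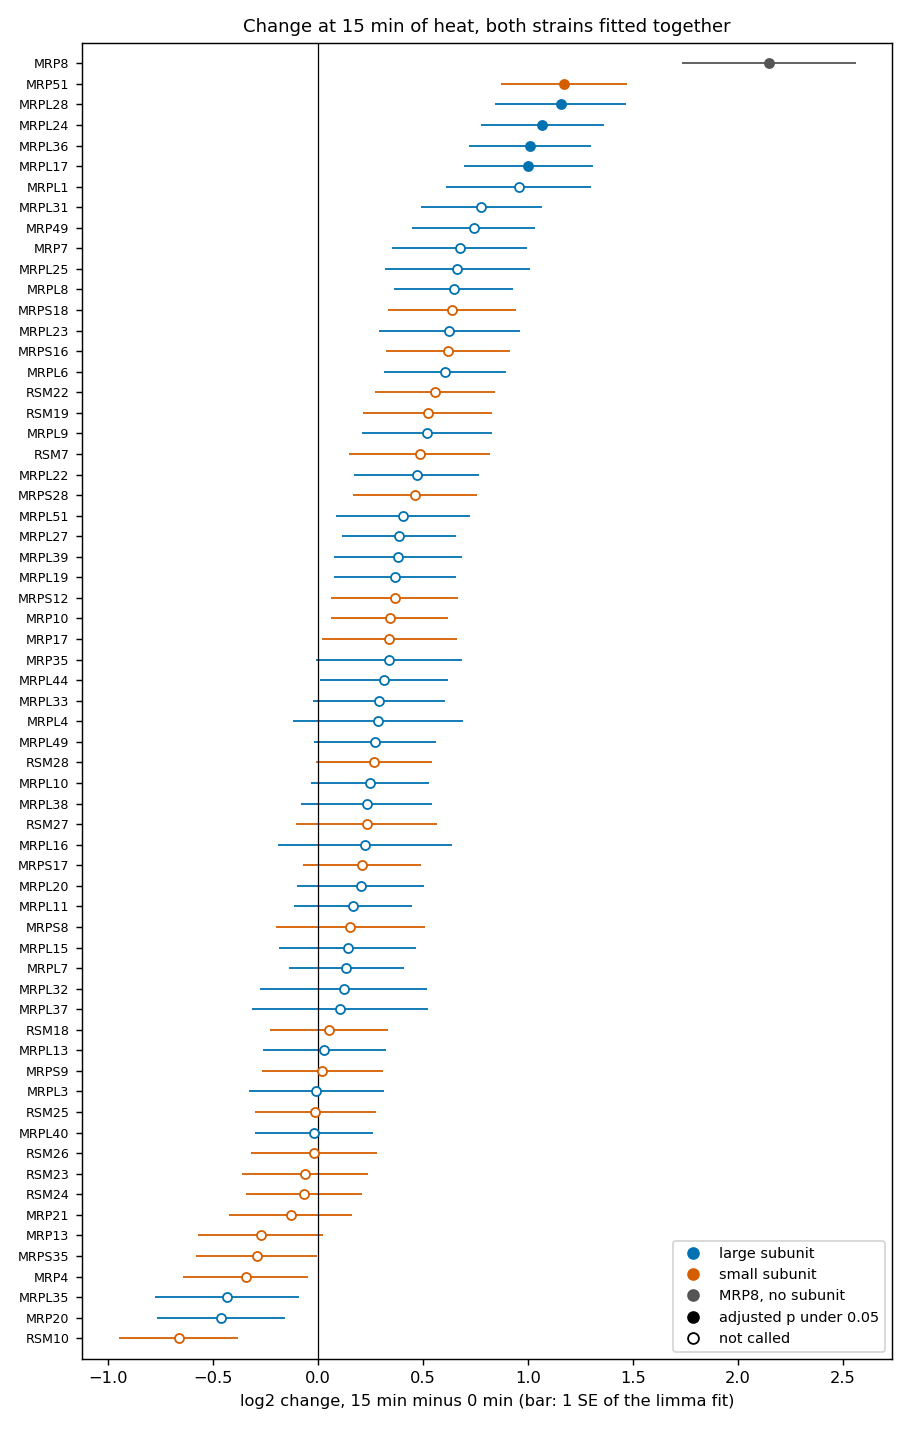
Fitted log2 change at 15 min minus 0 min for each of the 63 genes tested (horizontal axis), with bars of 1 SE of the limma fit. Filled points are genes with an adjusted p under 0.05, blue for the large subunit, orange for the small subunit and grey for MRP8, whose change of 2.15 lies apart from the next, MRP51 at 1.17.

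These calls rested on few arrays. Without the delKIN82 0 min array, or without the DBY8778 0 min array, 1 of the 6 genes kept its call at 15 min, MRP8. Without the delKIN82 15 min array 2 kept it, MRP51 and MRP8. The median change of the members was positive in each of these fits, between 0.24 and 0.38 over the fits that left out 1 array.

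At the other times few genes passed the test. At 5 min 0 of the 63 rose and 0 fell in limma, while 3.73% of all genes rose and 4.76% fell. At an unadjusted p under 0.05, 1 gene, MRP8, was higher and 1 was lower. The lower one, MRPL37 (YBR268W, mL54), had a change of -1.40 ± 0.42 (limma adjusted p = 0.0513). Its ratios were 0.55, -1.58, 1.12, 0.56 and 0.34 in delKIN82, against 0.28, -0.39, -0.08, 0.16 and 0.49 in DBY8778. The 5 min array was the lowest in each strain, most of all in delKIN82, and MRPL37 was chosen here after its values were seen. The median change of the members at 5 min was 0.03, and it was -0.06 with the arrays as deposited, without centring, so it has no settled direction.

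At 30 min 2 genes rose, MRPL28 and MRPS28, or 3.17% of the 63 against 4.33% of all genes. 0 fell in limma (8.13% of all genes fell), and 13 members were higher and 0 lower at an unadjusted p under 0.05. MRPS28 (YDR337W, uS15m) changed by 0.96 ± 0.29 (limma adjusted p = 0.0472). Positive changes were found for 54 of the 63 (85.7%, against 52.1% of all genes), with a median of 0.35. No call at 30 min was left without either 0 min array or without either 30 min array, and 1 was left without either 60 min array. Under quantile normalization and with equal spread neither MRPL28 nor MRPS28 was called at 30 min. In contrast, 8 genes rose without the delKIN82 5 min array, 7 without the DBY8778 5 min array and 6 without either 15 min array.

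At 60 min 0 of the 63 rose and 0 fell in limma, at a time when 0.488% of all genes rose and 0.907% fell. At an unadjusted p under 0.05, 7 were higher and 0 lower. Still, 50 of the 63 had a positive change (79.4%, against 49.0% of all genes), with a median of 0.24. The calls at this time depended on the scaling, with 5 rises under quantile normalization and 4 with arrays set to an equal spread.

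Between 15 and 60 min the group as a whole did not move in 1 direction. MRP8 fell and MRP21 rose, where 12.1% of all genes rose and 8.56% fell. MRP21 (YBL090W, bS21m), a small-subunit protein of the bacterial type, had ratios of -0.41, -1.08, -0.61, 0.08 and 0.23 in delKIN82, against -0.28, -0.38, -0.34, -0.02 and 0.76 in DBY8778. It was low up to 15 min and highest at 60 min in both strains, with a change of 0.97 ± 0.29 at 60 min against 15 min (limma adjusted p = 0.0291). This call was lost without either 15 min array or either 60 min array, with limma adjusted p between 0.0904 and 0.195, and that of MRP8 without the delKIN82 60 min array (limma adjusted p = 0.0696). The MRP8 change was also smaller and not called under quantile normalization, at -0.77 (limma adjusted p = 0.4), with equal spread, at -1.04 (limma adjusted p = 0.0942), and without both arrays titled repeat, at -1.60 (limma adjusted p = 0.062). Without the DBY8778 15 min array 4 members fell, and without the other 15 or 60 min arrays 0 or 1 did. The median of the 63 for 60 against 15 min was -0.06, and its sign changed with the scaling and with the array left out.

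Averaged over the 4 heated times, 5 of the 63 rose and 0 fell, 7.94% against 5.76% of all genes, of which 10.3% fell. Leaving out MRP8, 4 of 62 rose (6.45%). The 5 were MRP8 (1.16 ± 0.33), MRPL36 (0.77 ± 0.23), MRPL28 (0.76 ± 0.25), MRP51 (0.74 ± 0.24) and MRPL24 (0.73 ± 0.23), with limma adjusted p between 0.0231 and 0.0492. None kept its call without the delKIN82 0 min, the DBY8778 0 min or the DBY8778 60 min array, 1 kept it without the delKIN82 30 min array, 2 without the DBY8778 30 min array and 3 without the delKIN82 60 min array. MRP8 kept its call in 9 of 16 alternatives, with its average change between 0.59 under quantile normalization and 1.54 without the DBY8778 0 min array (limma adjusted p up to 0.409). The average change was positive for 53 of the 63, with a median of 0.21, and 0 were lower at an unadjusted p under 0.05.

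The direction was shared by the strains for many members. Of the 61 genes with all values, 38 were above their 0 min array at 15 min in delKIN82 and in DBY8778 alike (62.3%, against 38.4% of 5170 genes with all values). At 30 min 44 were higher in both (72.1%, against 36.1%), and at 60 min 36 were (59.0%, against 31.6%). At 5 min the number was 24 (39.3%, against 33.8%), close to that of all genes. The strains have separate 0 min arrays, and these shares are given as a description, without a test.

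A set of 15 of the 61 was above 0 min on every heated array of both strains (24.6%, against 10.9% of all genes). Of these 13 belong to the large subunit: MRPL6, MRPL7, MRPL8, MRPL11, MRPL22, MRPL23, MRPL24, MRPL27, MRPL28, MRPL36, MRPL39, MRPL49 and MRPL51. The small subunit gave MRP51 and RSM19. MRPS35 (mS45), a small-subunit protein of the mitochondrial type, was the only 1 of the 61 below 0 min on every heated array. It had ratios of 0.52, 0.22, 0.28, 0.28 and -0.17 in delKIN82, against 0.74, 0.56, 0.40, 0.31 and 0.60 in DBY8778. Its average change of -0.32 ± 0.23 did not pass the test (limma adjusted p = 0.405).

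Some members hardly differed from 0 min at 15 min. The smallest fitted changes of the large subunit were those of MRPL3 (mL44, with the fold of an RNase III enzyme) at -0.01 ± 0.32, MRPL40 (uL24m) at -0.02 ± 0.28 and MRPL13 (mL50) at 0.03 ± 0.29. Those of the small subunit were RSM25 (mS23) at -0.01 ± 0.29, RSM26 (mS42) at -0.02 ± 0.30 and MRPS9 (uS9m) at 0.02 ± 0.29. The sign of each of these 6 depended on the setting. MRP20 (YDR405W, uL23m), of the family that lines the exit of the peptide tunnel, was instead below 0 min at 15, 30 and 60 min in both strains. Its ratios were 0.51, 0.53, 0.11, -0.27 and -0.16 in delKIN82, against 0.23, -0.21, -0.29, -0.05 and -0.04 in DBY8778, and its average change of -0.42 ± 0.24 did not pass the test (limma adjusted p = 0.282).

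Large against small subunit, the 15 min change was somewhat higher in the large subunit, by an amount within the spread of the genes. In the large subunit 33 of 37 tested genes had a positive change and 4 rose, against 16 of 25 and 1 in the small subunit. The shares that rose, 10.8% in the large and 4.0% in the small subunit, lie on either side of the 9.5% of all genes, and the shares with a positive change were 89.2% and 64.0%, against 53.2% of all genes. The median change was 0.34 (quartiles 0.17 and 0.65) in the large subunit and 0.21 (quartiles -0.06 and 0.46) in the small subunit, a difference of 0.13. For the heat average the medians were 0.33 in the large subunit and 0.18 in the small subunit, and at 60 min 0.24 in the large and 0.28 in the small subunit. Between 15 and 60 min the median change was -0.10 in the large subunit and 0.13 in the small subunit. No p-value is given for these differences, because the genes were chosen with earlier results of these data known.

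On single arrays the 2 subunits were near each other. The large-subunit median minus the small-subunit median was -0.00, 0.11, 0.03, 0.07 and 0.06 at 0, 5, 15, 30 and 60 min in delKIN82. In DBY8778 it was -0.09, -0.14, -0.01, -0.02 and -0.18. The differences were positive on the heated delKIN82 arrays and negative on all DBY8778 arrays, and all were smaller than the interquartile range within each subunit, which was between 0.32 and 0.94.

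The gap at 15 min was widest among the proteins of the mitochondrial type. Among those of universal type the median change was 0.29 for 15 large-subunit genes and 0.29 for 10 small-subunit genes. Among those of bacterial type it was 0.51 for 8 large-subunit genes and 0.34 for 5 small-subunit genes. Among those of mitochondrial type it was 0.35 for 14 large-subunit genes and -0.02 for 9 small-subunit genes. Those 9 small-subunit genes ranged from -0.29 for MRPS35 to 0.34 for MRP10 (mS37), a protein with paired cysteines that is imported by the disulphide relay. In the heat average the mitochondrial type did not have the widest gap. Its large and small medians there were 0.19 and 0.13, against 0.44 and 0.21 for the bacterial type. For the universal type they were 0.265 and 0.25. In a separate list of proteins with bacterial homologues, 22 large-subunit and 15 small-subunit genes were tested. At 15 min their medians were 0.33 and 0.34, and the large minus small difference was -0.01, against 0.13 over all types. That list does not hold every gene of the universal and bacterial types.

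The strains differed in a part of the group. Over the 5 times 7 of the 63 were lower in delKIN82 than in DBY8778 in limma and 0 were higher. That is 11.1% lower, against 5.35% of all genes lower and 6.59% higher, and 1 member was higher at an unadjusted p under 0.05. The difference was negative for 46 of the 63 (73.0%, against 49.0% of all genes), with a median of -0.15, against 0.01 over all genes. Of the 7, 4 were among 25 small-subunit genes and 3 among 37 large-subunit genes.

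All 4 small-subunit genes are of universal type. The large-subunit genes of that type did not share this, with 0 of 15 called and a median difference of -0.04. MRPS28 (YDR337W, uS15m) had ratios of -0.26, 0.20, 0.72 and 0.19 at 0, 15, 30 and 60 min in delKIN82, without a value at 5 min. In DBY8778 they were 0.83, 0.33, 1.29, 1.77 and 0.68 at 0, 5, 15, 30 and 60 min. DBY8778 was higher at each of the 4 times with a pair, by about 1 log2 unit up to 30 min. The fitted difference was -0.93 ± 0.21, or 1.90-fold lower in delKIN82 (limma adjusted p = 0.0144), from 9 arrays.

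MRPS8 (YMR158W, uS8m), of a family that binds the central part of the small-subunit rRNA, had ratios of -0.53, -1.16, -0.19, -0.02 and 0.13 in delKIN82, against 0.29, 0.74, 0.26, 0.54 and 0.44 in DBY8778. The strains did not overlap, and the 5 min pair differed most, by -1.90. The fitted difference was -0.81 ± 0.23 (limma adjusted p = 0.0314).

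MRPS12 (YNR036C, uS12m), of the family at the decoding centre, had ratios of -0.67, -0.24, -0.12, -0.20 and 0.06 in delKIN82, against 0.32, 0.85, 0.49, 0.42 and 0.20 in DBY8778. RSM19 (YNR037C, uS19m), of a family in the head of the small subunit, had ratios of -0.81, -0.65, -0.19, 0.08 and 0.41 in delKIN82, against 0.20, 0.67, 0.62, 0.42 and 0.88 in DBY8778. Both were lower in delKIN82 at all 5 times, and the strains approached each other late in the time course. The fitted differences were -0.69 ± 0.19 for MRPS12 (limma adjusted p = 0.0314) and -0.79 ± 0.19 for RSM19 (limma adjusted p = 0.0193). These genes are next to each other in the RefSeq annotation of assembly R64, the only members that are neighbours.

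In the large subunit MRPL39 (YML009C, bL33m) had ratios of -0.84, -0.79, -0.55, -0.30 and 0.29 in delKIN82, against 0.10, 0.31, 0.57, 0.16 and 0.54 in DBY8778. MRPL13 (YKR006C, mL50) had ratios of -0.24, -0.63, -0.10, 0.23 and 0.33 in delKIN82, against 0.58, 0.54, 0.50, 0.90 and 0.65 in DBY8778. For MRPL13 every delKIN82 array was below every DBY8778 array, while for MRPL39 the delKIN82 array at 60 min lay within the range of DBY8778. The fitted differences were -0.77 ± 0.19 for MRPL39 (limma adjusted p = 0.0208) and -0.72 ± 0.18 for MRPL13 (limma adjusted p = 0.0237).

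MRPL51 (YPR100W, mL43) had ratios of -0.69, -0.62, -0.12, -0.07 and -0.03 in delKIN82, against 0.14, 0.81, 0.39, 0.40 and 0.18 in DBY8778. No delKIN82 array reached the DBY8778 range, and the difference was -0.69 ± 0.20 (limma adjusted p = 0.0394). This call was kept in 3 of 16 alternatives, the fewest of the 7 genes, with limma adjusted p up to 0.148. MRPL51 overlaps the reading frame YPR099C by 323 bases in the annotation, so that a probe may not tell them apart. YPR099C itself differed by -0.36 ± 0.20, which did not pass the test (limma adjusted p = 0.252).

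**Figure D3:**
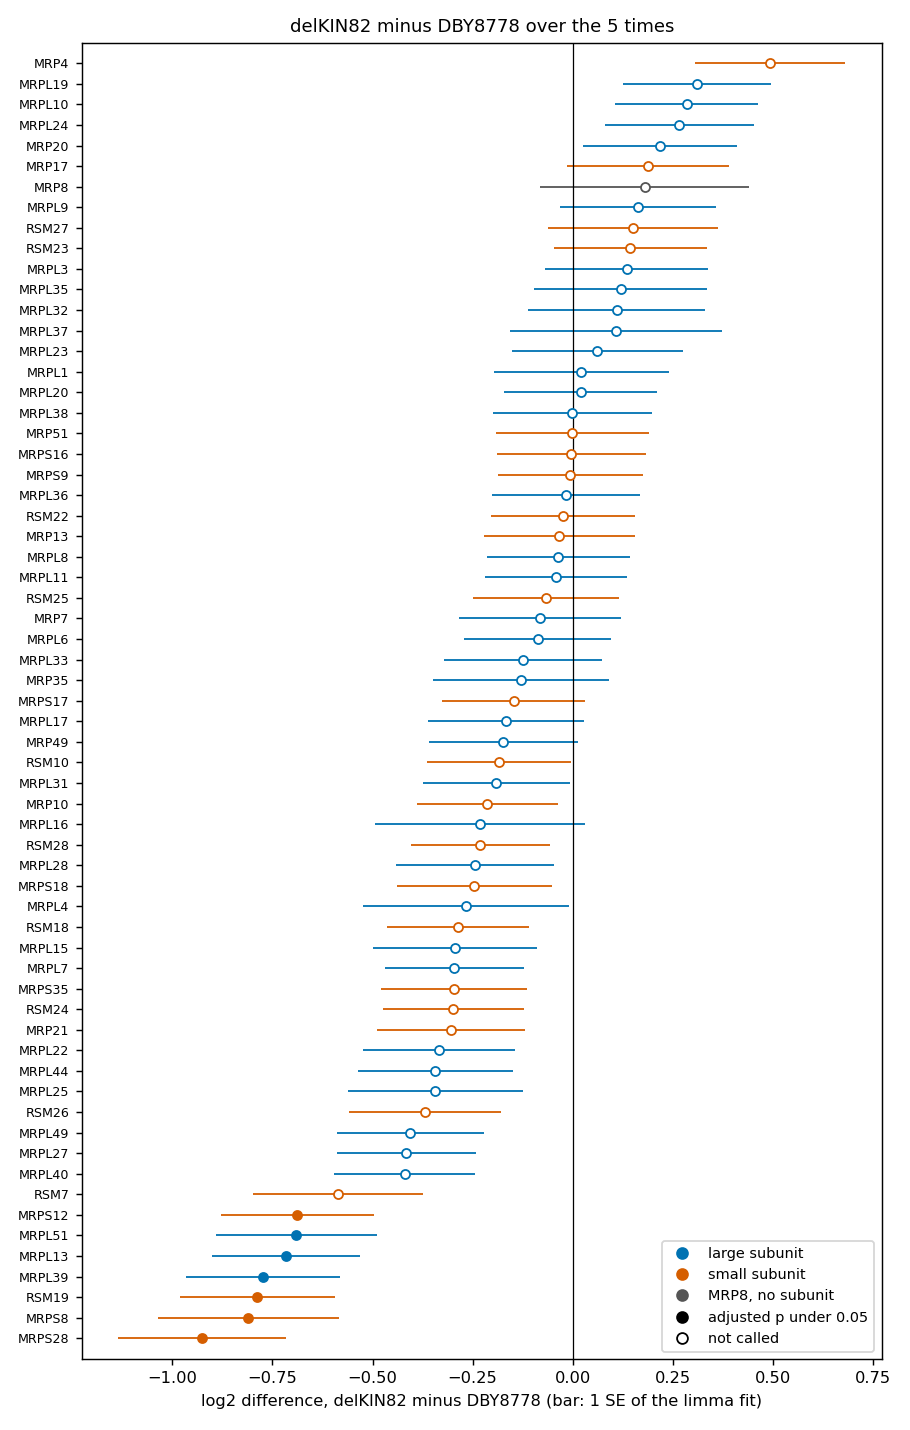
Fitted log2 difference of delKIN82 minus DBY8778 over the 5 times for each of the 63 genes tested (horizontal axis), with bars of 1 SE of the limma fit. The 7 filled points, with an adjusted p under 0.05, lie between -0.93 and -0.69, and the highest value is that of MRP4 at 0.49.

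At the other end, MRP4 (YHL004W, uS2m) had the highest strain difference, 0.49 ± 0.19, and did not pass the test (limma adjusted p = 0.102). Its ratios were 0.61, 0.48, 0.22, 0.81 and 0.24 in delKIN82, against -0.06, -0.11, -0.36, 0.08 and 0.36 in DBY8778. It was higher in delKIN82 up to 30 min and not at 60 min. MRPL19 (uL11m) at 0.31 ± 0.18, MRPL10 (uL15m) at 0.28 ± 0.18, MRPL24 at 0.27 ± 0.18 and MRP20 at 0.22 ± 0.19 followed, and none passed the test. MRPL19 overlaps the reading frame YNL184C by 113 bases in the annotation, so that a probe may not tell them apart. YNL184C lacked the DBY8778 0 min value and was not tested. It was lower in delKIN82 at 5, 15, 30 and 60 min.

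Most members were lower in delKIN82 at each time. The share of measured members that were lower was 68.3% at 0 min, 67.7% at 5 min, 55.4% at 15 min, 62.1% at 30 min and 71.2% at 60 min. Over all genes these shares were 46.2%, 50.4%, 48.0%, 50.1% and 49.8%. The median difference was -0.13 at 0 min, -0.36 at 5 min, -0.09 at 15 min, -0.11 at 30 min and -0.15 at 60 min. The 5 min pair thus showed the largest median difference. On that pair 12 of 65 members were at least 2-fold lower in delKIN82 (18.5%, against 9.56% of all genes) and 0 at least 2-fold higher (against 8.8% of all genes).

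Of the 61 genes with all values, 16 were lower in delKIN82 at all 5 times (26.2%, against 11.3% of all genes) and 2, MRPL10 and MRPL24, were higher at all 5 (3.28%, against 13.3%). Besides those called, the 16 were MRPL7, MRPL22, MRPL27, MRPL40, MRPL49, MRPS18, MRPS35, RSM18, RSM24 and RSM28. They included 8 of 36 large-subunit and 8 of 24 small-subunit genes. The median strain difference was -0.12 in the large and -0.21 in the small subunit. Among the small-subunit genes it was -0.42 for the 10 of universal type, -0.00 for the 5 of bacterial type and -0.21 for the 9 of mitochondrial type. Among the large-subunit genes it was -0.04 for the 15 of universal, -0.06 for the 8 of bacterial and -0.22 for the 14 of mitochondrial type.

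**Figure D4:**
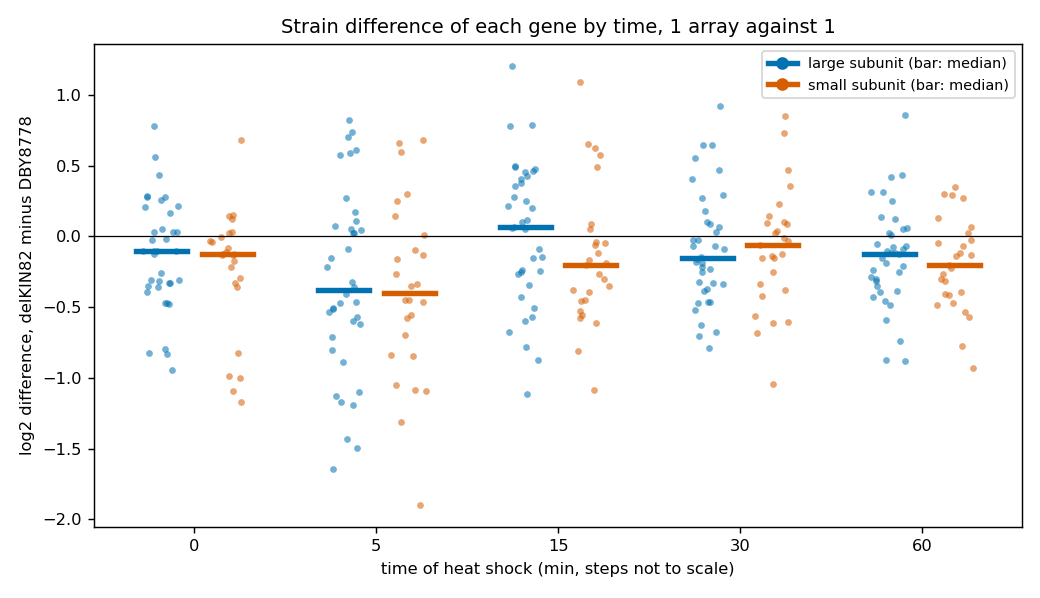
Log2 difference of delKIN82 minus DBY8778 on the pair of arrays at each time (vertical axis) for each large-subunit gene in blue and each small-subunit gene in orange, with bars at the medians. Medians lie below 0 at each time except the large subunit at 15 min (0.06), and the lowest gene is MRPS8 at 5 min (-1.90).

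The strain calls depended on single arrays, and strain cannot be told apart from the time course in which each strain was grown. Of the 7 calls, 0 were left without the delKIN82 0 min, the DBY8778 0 min or the DBY8778 5 min array, 1 without the delKIN82 5 min array, and 2 without either 30 min array. The 7 differences themselves kept their sign in all alternatives. Other lists differed between the strains as well, and their part in the result was not tested. Of 27 chaperones 20 were lower in delKIN82 (median -0.89), of 80 ribosome biogenesis genes 40 were higher (median 0.69) and of 134 cytosolic ribosomal protein genes 26 were higher (median 0.41). Over all genes 5.35% were lower and 6.59% higher.

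No difference between the strains in the response to heat was called. The strain by heat term, the average change in delKIN82 minus that in DBY8778, gave 0 calls in limma among the 63 genes and 0.0% of all genes. At an unadjusted p under 0.05 there were 130 of 5734 genes and 0 of the members. The median term of the members was 0.02. The term rests on 1 pair of arrays at 0 min, and the lack of calls does not show that the strains responded alike.

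The highest terms were those of MRP7, MRP8 and RSM7. MRP7 (YNL005C, bL27m), of the family that reaches the peptidyl transferase centre, had ratios of -0.32, 0.79, 0.997, 0.52 and 0.22 in delKIN82, against 0.47, 0.68, 0.51, 0.54 and 0.41 in DBY8778. Its difference of delKIN82 minus DBY8778 was -0.795 at 0 min, 0.107 at 5 min, 0.491 at 15 min, -0.025 at 30 min and -0.192 at 60 min. Its average change was 0.95 in delKIN82 and 0.06 in DBY8778, a term of 0.89 ± 0.49. RSM7 (YJR113C, uS7m) changed on average by 0.72 in delKIN82 and -0.01 in DBY8778. The lowest terms were those of MRPL9 (uL3m) at -0.77 ± 0.49, MRPL4 (uL29m) at -0.59 ± 0.65 and MRPL35 (mL38) at -0.55 ± 0.56. The lowest limma adjusted p of a member was 0.999.

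MRPS5, MRP1 and MRPL50 were not tested because a 0 min value was missing. MRPS5 (YBR251W, uS5m) had ratios of -0.85, 0.55, 0.04 and -0.29 at 5, 15, 30 and 60 min in delKIN82, against 0.34, -0.01, 0.47, 0.64 and 0.28 at 0 to 60 min in DBY8778. MRP1 (YDR347W, mS43) had -0.20, 0.77, 1.30 and 0.74 in delKIN82, against 0.44, 0.89, 0.15, 0.45 and 0.44 in DBY8778. MRPL50 (YNR022C, bL9m) had -0.30, -0.64, -0.25, -0.44 and -0.32 in delKIN82, against -0.55, -0.60, -0.10 and -0.22 at 5 to 60 min in DBY8778. MRPS5 and MRP1 were lowest at 5 min in delKIN82, and the ratio of MRPL50 was below that of the median gene on all 9 arrays. MRPL32 (bL32m), which is matured by a mitochondrial protease, lacked the DBY8778 15 min value and was fitted from 9 arrays.

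The other genes of mitochondrial gene expression form small lists. Their calls at 15 min stand beside 9.5% of all genes that rose and 14.1% that fell. Of 14 further mitochondrial ribosomal proteins with other names, 0 were called in limma (median 0.16), and 2 were higher and 0 lower at an unadjusted p under 0.05. IMG1 rose in the heat average by 0.79 ± 0.23 (limma adjusted p = 0.0287). Of 10 translation factors MEF2, a factor for ribosome recycling, rose by 0.95 ± 0.28 (limma adjusted p = 0.0214). Of 11 mitochondrial tRNA synthetases MSF1 (phenylalanine) rose by 1.33 ± 0.29 and SLM5 (asparagine) by 0.93 ± 0.31, with limma adjusted p of 0.00306 and 0.0395. Of 9 ribosome assembly genes and 12 translation activators of single mitochondrial mRNAs 0 were called in limma. At an unadjusted p under 0.05, 1 assembly gene was higher and 1 lower, and 1 activator was higher and 0 lower. In the heat average ATP25 of the assembly list rose by 0.72 ± 0.23 (limma adjusted p = 0.0483). Of 25 import genes MGE1, the nucleotide exchange factor of the import motor, fell by 0.94 ± 0.28 (limma adjusted p = 0.0223).

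In the strain difference the median was -0.15 for the 63 members, against -0.36 for the 12 activators and -0.01 for the 14 further ribosomal proteins. It was -0.135 for the 25 import genes, -0.12 for the 10 translation factors, -0.09 for the 11 synthetases and -0.03 for the 9 assembly genes. Of the activators 5 were lower and 0 higher at an unadjusted p under 0.05. Among the translation factors, synthetases and activators 1 gene each was called. They were GUF1, a translation factor, at -0.78 ± 0.23, MSF1 at -0.77 ± 0.18 and CBS2, an activator of cytochrome b mRNA, at -0.76 ± 0.19, all lower in delKIN82 with limma adjusted p between 0.016 and 0.0394. Of the import genes 2 were higher and 2 lower in delKIN82. Of the 14 further ribosomal proteins 0 were called in limma, with 0 higher and 1 lower at an unadjusted p under 0.05.

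The nuclear subunits of the respiratory chain and ATP synthase, the partners of the proteins that mitochondrial ribosomes make, were set beside the mitochondrial ribosomal genes. The median change at 15 min was 0.29 for the 63 mitochondrial ribosomal genes, against 0.72 for 36 respiratory genes. Of these 36, 11 rose and 0 fell in limma, and 0 were lower at an unadjusted p under 0.05. Over all genes 9.5% rose and 14.1% fell at this time. CYT1, cytochrome c1, rose by 1.86 ± 0.32 (limma adjusted p = 0.000516). By single arrays the large-subunit median change at 60 min was 0.32 in delKIN82 and 0.26 in DBY8778, against -0.23 in delKIN82 and -0.01 in DBY8778 for the respiratory list.

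The cytosolic ribosome was the other comparison. At 15 min 6 of the 63 mitochondrial ribosomal genes rose, which at 9.52% is the share of all genes (9.5%). Leaving out MRP8, 5 of 62 rose (8.06%). 0 fell, against 14.1% of all genes. Of 134 cytosolic ribosomal protein genes, 129 fell at 15 min and 0 rose in limma, with a median change of -2.21, and of 80 ribosome biogenesis genes 72 fell and 0 rose (median -2.19). In both lists 0 were higher at an unadjusted p under 0.05. By single arrays 15 of 64 mitochondrial ribosomal genes in delKIN82 and 16 of 64 in DBY8778 were below 0 min at 15 min, and none of them reached a 2-fold decrease. Of the cytosolic genes 133 of 135 in delKIN82 and 132 of 133 in DBY8778 were below 0 min, 109 in delKIN82 and 129 in DBY8778 by at least 2-fold. At 60 min the median change of the cytosolic genes was -0.89 in delKIN82 and -0.92 in DBY8778. The lowest 15 min change of a mitochondrial ribosomal gene, -0.66 for RSM10, was above the median of the cytosolic genes by more than 1 log2 unit.

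**Figure D5:**
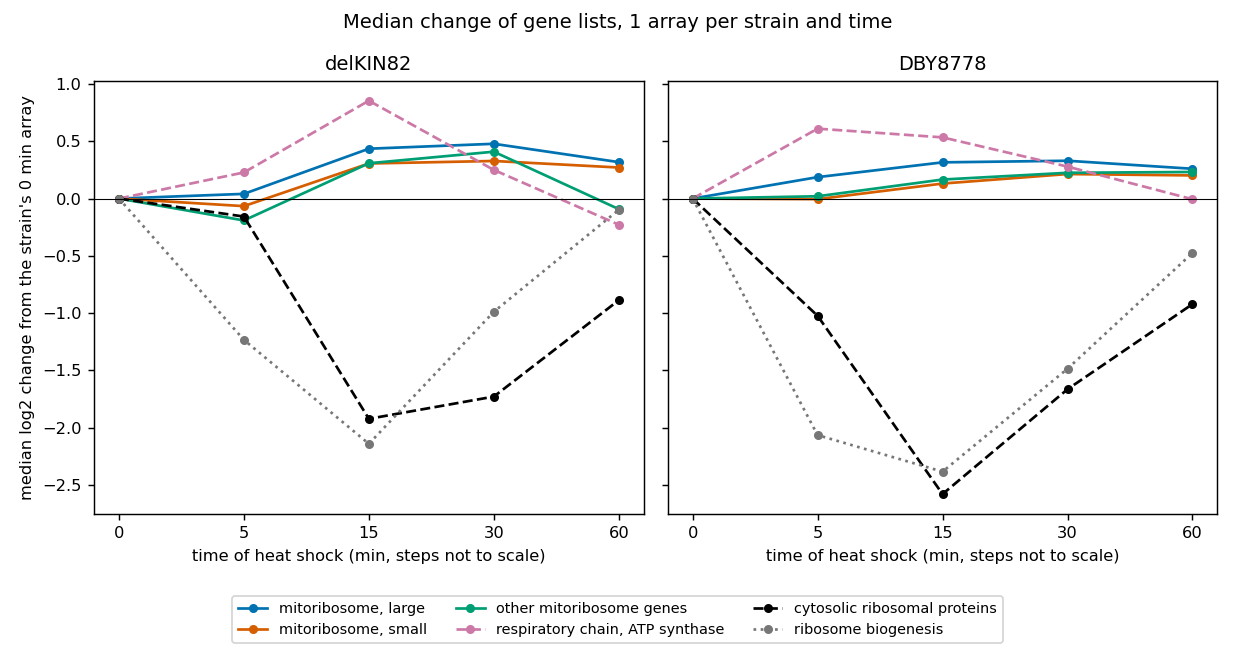
Median log2 change from the 0 min array of the same strain (vertical axis) against time of heat shock in min for 6 gene lists, with delKIN82 left and DBY8778 right. The large-subunit and small-subunit medians of the mitochondrial ribosome lay between -0.07 and 0.48 on all heated arrays, while cytosolic ribosomal protein genes reached -1.92 in delKIN82 and -2.58 in DBY8778 at 15 min.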

How the data were processed

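Each of the 10 arrays compared 1 RNA sample with a reference. The authors deposited 1 log ratio per gene and array, read here as a log2 ratio. Its base, centring and direction, the dyes, the background correction and the normalization are not stated in the labels or headers. A natural logarithm would make all log2 values larger by 1 factor. Before centring, array medians ran between -0.15 and 0.03 in the deposited table. The number of arrays limits the precision, and the labels do not say that they hold separate cultures.

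Locus tags of the RefSeq R64 annotation gave symbols to 5484 rows, and 499 keep systematic names. Members and gene lists were chosen with earlier results of these data known. MRP35, given no subunit by the symbol rule, was placed by its RefSeq name; RSM22 has none and was kept by symbol.

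Each array's median was subtracted. A gene was tested if both 0 min arrays, at least 8 of 10 arrays and at least 1 array of each time held a value (5734 genes). R 4.3.3 and limma 3.58.1 (lmFit, eBayes) fitted time as a factor plus strain, leaving 4 residual and 11.0 prior degrees of freedom (prior SD 0.32). The strain by heat term was fitted with 3 residual degrees of freedom. P-values were adjusted by Benjamini-Hochberg over the 5734 genes, with calls under 0.05. Tables and figures used Python 3.11.15. On simulated data, the 15 min test called 25% of 100 genes changed by 1 log2 unit and 98% of 100 changed by 2 log2 units, and the strain test 89% and 100%. The same genes were changed for both tests, and 8 unchanged genes were called at 15 min and 11 between strains. Fewer genes were changed there than were called on the arrays, so these percentages do not give the power of the real tests.

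Genes named were the 5 of each subunit with the largest and the 3 with the smallest change at 15 min, up to 6 largest rises, the 5 highest and 5 lowest strain differences, the 3 highest and lowest strain by heat terms, all members called, MRP8, and up to 3 called genes per direction of each further list. MRPS35, MRPL37 and the other members given by role were named after their values were seen. Alternatives were the arrays without centring, quantile normalization, equal median absolute deviation, genes on all 10 arrays, robust eBayes, each array left out in turn and both arrays titled repeat left out.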

Additional observations from a re-analysis of the deposited data

How the results depend on the processing

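Over 16 alternatives the median change of the members at 15 min stayed between 0.24 and 0.38 and the median strain difference between -0.23 and -0.09. Counts of called members moved more, above all without a 0 min array.

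Leaving out 1 array at a time gave 0 to 2 calls at 5 min, 1 to 7 at 15 min, 0 to 8 at 30 min, 0 to 5 for 60 against 15 min, 0 to 5 in the heat average and 0 to 5 between strains. Without both arrays titled repeat 1 was called at 15 min and 0 at 30 min, for 60 against 15 min, in the heat average and between strains. At 5 min 1 was called without centring, 1 with equal median absolute deviation and 1 among genes on all 10 arrays. At 60 min 5 were called under quantile normalization and 4 with equal median absolute deviation, and for 60 against 15 min 0 and 1. The heat average gave 3 without centring. In the separate list of proteins with bacterial homologues, large minus small was -0.012 at 15 min, against 0.13 over all members. Between strains it was 0.208, against 0.09 over all members. The strain by heat term gave 0 calls in all 13 alternatives and could not be fitted without a 0 min array. The cause of these moves was not tested.

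The 22 called values of named members were fitted in 348 alternatives and lost the call in 145, and 22 uncalled values were fitted in 334 and gained one in 6. Members not named, which also gained calls, are in the counts above only. Signs changed for 6 uncalled members near 0 at 15 min. Without centring MRPL13 was at -0.015 and MRPS9 at -0.026. Under quantile normalization MRPL13 was at -0.093, MRPL3 at 0.012, RSM25 at 0.036 and RSM26 at 0.135. With equal median absolute deviation MRPL13 was at -0.076, MRPL3 at 0.020, RSM25 at 0.042 and RSM26 at 0.118. Without both arrays titled repeat MRPS9 was at -0.056 and RSM26 at 0.093. Leaving out 1 array gave -0.041 to 0.103 for MRPL13, -0.45 to 0.433 for MRPL3, -0.134 to 0.096 for MRPL40, -0.224 to 0.264 for MRPS9, -0.255 to 0.232 for RSM25 and -0.135 to 0.097 for RSM26. No paired analysis was possible because each strain and time has 1 sample, beyond the fit itself, which sets the strains against each other within each time.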
